A study of Mus musculus with 14 samples.

Results

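The 30 genes described here encode the enzymes and transporters of GABA, subunits of GABA-A and GABA-B receptors, the receptor scaffold gephyrin, and proteins that mark classes of interneurons. They were taken by symbol from the gene count table of mouse hippocampus, where all 30 were found among 55536 Ensembl genes and all 30 were among the 38070 genes tested. By role, 5 genes serve the synthesis and transport of GABA, 9 encode GABA-A subunits, 1 encodes a GABA-A scaffold, 2 encode GABA-B subunits and 13 mark interneurons or their classes. Poly(A) RNA was sequenced from the hippocampus of 10-month-old mice of 4 genotypes, all on a C57BL/6 background: MRL (B6.MRL-Faslpr/J, carrying the lupus-promoting lpr allele of Fas, n = 4), MRL-IRAK4-KD (the same line crossed to a kinase-dead Irak4 allele, n = 4), C57BL/6 (n = 3) and IRAK4-KD (labelled as the kinase-dead allele alone, n = 3). The Fas transcripts of 1 library labelled IRAK4-KD, replicate 3, were those of the lpr carriers, so its genotype is in doubt. The kinase-dead allele is in the germline and so is not limited to a cell type. The C57BL/6 mice were purchased and the other 3 lines came from another laboratory, so the colony of origin and the genotype cannot be told apart in any comparison with C57BL/6. The study's plots of hippocampal RNA show each mouse as a point of its own, and the libraries were taken as separate mice.

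GABA is the main inhibitory transmitter of the brain. It is made from glutamate by the enzymes GAD67 and GAD65, packed into vesicles by VGAT, and sensed by GABA-A receptors, which are chloride channels built of 5 subunits, and by GABA-B receptors, which couple to G proteins and need both of their subunits. In the hippocampus the cells that release GABA are a minority among glutamatergic pyramidal and granule cells, and they fall into classes named by parvalbumin, somatostatin, vasoactive intestinal peptide, cholecystokinin or neuropeptide Y. In RNA from whole tissue, fewer cells of a type and less RNA per cell cannot be told apart.

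Total counts, which the authors derived from read coverage and which are not numbers of reads, ranged from 279941472 to 572398312 per library, and every member had at least 1046 counts in every library. MRL-IRAK4-KD replicate 4 stood apart, with a score of 102 on a first principal component that held 51.3% of the variance, against -19.1 to 3.58 in the other 13 libraries. Its concentration by qPCR at sequencing was 13.5 nM, against 23.5 to 27.6 nM in the others. The library labelled IRAK4-KD replicate 3 had 28.8 CPM (counts scaled to the same library total) of the dopamine receptor gene Drd1 and 19.7 CPM of the adenosine receptor gene Adora2a, both defining genes of striatal neurons, against at most 8.64 and 2.64 CPM elsewhere. All its Fas counts but a few fell on the transcript Fas-204 (514 counts) and none on Fas-201, as in all 8 libraries labelled MRL or MRL-IRAK4-KD, whereas the other 2 IRAK4-KD libraries had 360 and 386 counts on Fas-201. The kinase-dead allele does not remove the Irak4 transcript, and Irak4 lay between 1.54 and 2.72 CPM in all 14 libraries, which does not check the labels. Genes of hippocampal excitatory neurons, 13 of 13 detected, summed to 833 to 2401 CPM, the highest in MRL-IRAK4-KD replicate 4. Choroid plexus genes summed to 7908 CPM in MRL-IRAK4-KD replicate 4 and to 74.4 to 1893 CPM in the other 13 libraries. They varied within every group.

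Per kilobase of exon, the members spanned a wide range of levels. The neuropeptide genes Sst (somatostatin) and Cck (cholecystokinin) stood highest, at a mean over all libraries of 159 and 126 CPM per kb, followed by Gabbr1 with 80.0 CPM per kb and Npy (neuropeptide Y) with 69.9 CPM per kb. Of the GABA-A subunits, Gabra5 (52.7 CPM per kb) and Gabra2 (39.9 CPM per kb) were the most abundant per length, and Gabrg1 (2.80 CPM per kb) and Gabrg3 (1.70 CPM per kb) were the least. Gad1, encoding GAD67, had 34.0 CPM per kb and Gad2, encoding GAD65, had 19.5 CPM per kb. These levels divide counts by the whole annotated exon length, so a gene that uses only part of it in this tissue reads low.

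Among the 30 genes, Gabra2 was the only one past an adjusted p of 0.05 in any comparison. Its RNA was lower in C57BL/6 mice than in IRAK4-KD mice, by 2.28-fold. The direction of each comparison is given as the first group over the second, and the tests were edgeR quasi-likelihood tests with Benjamini-Hochberg adjustment over all 38070 genes. Unadjusted counts were read against the 16104 genes with a mean of at least 1 CPM, since every member was expressed at that level.

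MRL over MRL-IRAK4-KD compares the lupus-prone line with intact and with kinase-dead Irak4. Here 0 of 30 members passed the adjusted threshold (0.0972% of all tested genes did). An unadjusted p below 0.05 was found for 5 members, 3 higher in MRL (Gabrg1, Reln, Lamp5) and 2 lower (Gabra2, Cck), where 14.7% of expressed genes, 6.85% higher and 7.89% lower, had such a p. By the labels, C57BL/6 over IRAK4-KD makes the same comparison without lpr, though IRAK4-KD replicate 3 goes against its label in Fas. There 1 member passed the adjusted threshold (0.147% of all tested genes did). An unadjusted p below 0.05 was found for 3, all lower in C57BL/6 (Gad2, Gabra2, Ndnf). Of expressed genes 3.77% had such a p, 2.10% higher and 1.67% lower. Genes past the adjusted threshold in both comparisons included Ccl21b on chromosome 4 and Lyrm7 on chromosome 11. Their log2 fold changes were 7.45 and 6.55 for Ccl21b and -1.04 and -1.11 for Lyrm7. The part of other differences between these lines was not tested, so neither comparison isolates the mutation.

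For MRL over C57BL/6, which compares the lupus-prone line with the wild type, 0 members and 0% of all genes passed the adjusted threshold by edgeR. DESeq2 called 197 genes in that comparison and limma-voom 67, each with Gabra2 as the only member; neither tool called a member in MRL over MRL-IRAK4-KD or MRL-IRAK4-KD over IRAK4-KD. An unadjusted p below 0.05 was found for 3 members, all higher in MRL (Gabra2, Gabrd, Lamp5), with 5.82% of expressed genes below it, 4.62% higher and 1.20% lower. For MRL-IRAK4-KD over IRAK4-KD, which by the labels compares kinase-dead mice with and without lpr, with the same doubt about IRAK4-KD replicate 3, 0 members passed (0.0735% of all genes did), and Pvalb and Cck were at an unadjusted p below 0.05, both higher in MRL-IRAK4-KD. Of expressed genes 11.6% were below it, 8.74% higher and 2.88% lower. The interaction, which is the log2 fold change of MRL over MRL-IRAK4-KD minus that of C57BL/6 over IRAK4-KD, had 0 members past the adjusted threshold (0.00263% of all genes) and 1, Gabra2, at an unadjusted p below 0.05, with 2.96% of expressed genes below it, 1.40% positive and 1.56% negative. Gabra2 enters 4 of these 5 counts, and the comparisons share groups.

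The median of the 30 members lay farthest from that of all genes in the interaction. Their median log2 fold change was 0.0018 in MRL over MRL-IRAK4-KD (0.0023 over all genes tested), -0.094 in C57BL/6 over IRAK4-KD (0.0079), 0.069 in MRL over C57BL/6 (-0.0046) -0.10 in MRL-IRAK4-KD over IRAK4-KD (0) and 0.20 in the interaction (-0.0038). The values were above 0 for 15, 8, 23, 11 and 24 of the 30 members in that order. The share of all genes above 0 was not counted. Of the 17 members with over 5 kb of exon, 2 were higher in MRL-IRAK4-KD replicate 4 than in the rest of its group. In the library labelled IRAK4-KD replicate 3, 15 of the 17 were higher. Both libraries enter the interaction, and these medians were not computed without them. The members without an unadjusted p below 0.05 had log2 fold changes between -0.60 and 0.64 in the 4 comparisons of groups.

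**Figure D1:**
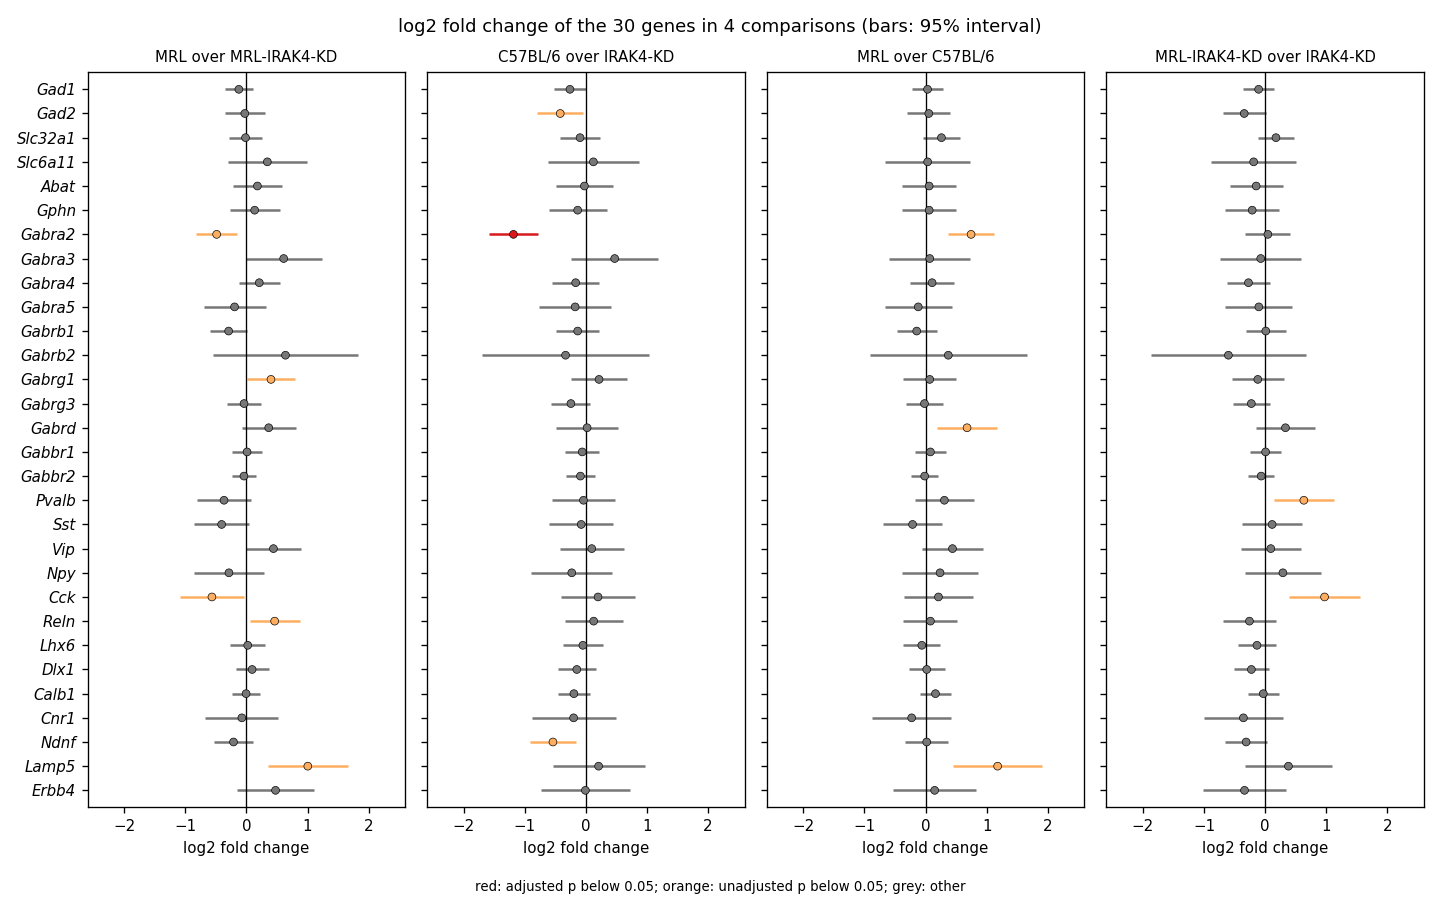
log2 fold change of the 30 genes in 4 comparisons of 2 groups each, in mouse hippocampus. Points are the edgeR estimates, bars their 95% intervals, red an adjusted p below 0.05 (Gabra2 in C57BL/6 over IRAK4-KD, -1.19), orange an unadjusted p below 0.05 and grey all others.

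Gabra2 (ENSMUSG00000000560.9, mm10 chromosome 5, 70957597 to 71095849, minus strand) encodes the alpha-2 subunit of the GABA-A receptor, which is concentrated at synapses on the axon initial segment of pyramidal cells and in limbic regions. Brain Gabra2 RNA is known from earlier work to be lower in C57BL/6J than in many other inbred strains. The 250 bases before its RefSeq start (GRCm38.p6, chr5:71095850-71096099, minus strand, read 5′ to 3′) are shown as the region next to the start of the gene whose RNA differed. Capitals mark the GC box GGGCGG, which 32.7% of 32851 windows of this length held on either strand, and 70.0% of the bases were G or C.
Gabra2: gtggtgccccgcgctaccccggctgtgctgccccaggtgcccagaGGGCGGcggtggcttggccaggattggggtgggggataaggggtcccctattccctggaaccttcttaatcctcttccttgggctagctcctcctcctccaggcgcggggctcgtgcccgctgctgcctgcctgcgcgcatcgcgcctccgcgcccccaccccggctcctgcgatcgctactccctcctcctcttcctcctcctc

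The 3 C57BL/6 libraries had 153, 174 and 166 CPM of Gabra2. The 3 IRAK4-KD libraries had 412, 338 and 373 CPM. The 4 MRL libraries had 289.9, 301, 260.2 and 251 CPM. The 4 MRL-IRAK4-KD libraries had 335, 300.5, 359 and 551 CPM, the last being replicate 4. Every C57BL/6 library lay below every library of the other 3 groups, while MRL lay below IRAK4-KD without overlap and MRL and MRL-IRAK4-KD overlapped through replicate 2 of each.

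In C57BL/6 over IRAK4-KD the log2 difference was -1.19 (SE 0.18, 95% interval -1.59 to -0.79, unadjusted p = 1.72e-05, edgeR adjusted p = 0.0163). The sign held in all 23 alternative analyses and the adjusted p stayed below 0.05 in 18 of them, with log2 fold changes from -1.26 to -1.11. The adjusted p stayed below 0.05 without IRAK4-KD replicate 2, and rose above it when any other single library of the compared groups was left out. It was 0.111 without C57BL/6 replicate 1, 0.0727 without C57BL/6 replicate 2 and 0.101 without C57BL/6 replicate 3. It was 0.0984 without IRAK4-KD replicate 1 and 0.080 without the library labelled IRAK4-KD replicate 3, which left the log2 fold change at -1.19.

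MRL over C57BL/6 was 0.75 on the log2 scale (standard error 0.17, unadjusted p = 0.000765, edgeR adjusted p = 0.549). Leaving out MRL-IRAK4-KD replicate 4 (a library of neither group that enters the shared estimate of the spread) brought its adjusted p to 0.0174, and it was 0.0222 by DESeq2 and 0.0191 by limma-voom with library weights. MRL over MRL-IRAK4-KD was -0.49 (unadjusted p = 0.00822, adjusted p = 0.410), or -0.26 when MRL-IRAK4-KD replicate 4 was left out (unadjusted p = 0.0111). MRL-IRAK4-KD over IRAK4-KD was 0.05 (95% interval -0.32 to 0.41). The interaction was 0.70 (unadjusted p = 0.0119, adjusted p = 0.914), and leaving MRL-IRAK4-KD replicate 4 out gave 0.93 (adjusted p = 0.0193).

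Genes of hippocampal excitatory neurons, which carry much of the alpha-2 subunit, were at an unadjusted p below 0.05 in some of the same comparisons. In C57BL/6 over IRAK4-KD 3 of 13 (Wfs1, Lct and Dsp) were lower and 0 higher at an unadjusted p below 0.05 (median log2 value -0.33). Of expressed genes 1.67% were lower at such a p in that comparison. The list summed to 985 to 1320 CPM in C57BL/6 and 1344 to 1759 CPM in IRAK4-KD. In MRL over MRL-IRAK4-KD 6 of 13 were lower and 0 higher, with a median of -0.39, where 7.89% of expressed genes were lower. Among the 6 lower genes were Spink8 (-1.04) and Fibcd1 (-0.64), both markers of CA1 pyramidal cells. Of the 13, 1 had a log2 fold change above 0. Wfs1 went that way, at 107, 91.4, 118 and 103 CPM in MRL and 91.6, 89.7, 107 and 93.3 CPM in MRL-IRAK4-KD. There the list summed to 833 to 1520 CPM in MRL and 1247 to 1506 CPM in replicates 1 to 3 of MRL-IRAK4-KD. Replicate 4 of MRL-IRAK4-KD summed to 2401 CPM, of which Zbtb20 alone held 1509 CPM. In that library Spink8 (33.1 CPM) was the highest of its group, and Prox1 (62.4 CPM) and Neurod6 (167 CPM) were the lowest. The list was not counted without that library. In MRL over C57BL/6 it had 1 gene higher and 0 lower, with a median of -0.13, where 4.62% of expressed genes were higher. No gene of the list passed the adjusted threshold, none of it was at 0 in every library, and its part in the Gabra2 values was not tested.

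The transcript estimates for Gabra2 also set C57BL/6 apart. The protein-coding transcript Gabra2-203 took 98.2% to 99.8% of the gene's counts in the 11 libraries of the other 3 groups. In the 3 C57BL/6 libraries it took 85.0%, 83.4% and 88.1%. There Gabra2-204, annotated as a target of nonsense-mediated decay, took 11.6%, 14.7% and 10.2%, which was 6537, 7355 and 6894 counts. Outside C57BL/6, Gabra2-204 had 0 counts in 8 libraries, 371 in MRL-IRAK4-KD replicate 4, 524 in MRL replicate 2 and 3008 (1.45%) in the library labelled IRAK4-KD replicate 3. On Gabra2-203 alone, C57BL/6 had 129.8, 145 and 146 CPM, against at least 251 CPM in every other library. Gabra2 was not the only member whose transcripts differed in C57BL/6. The protein-coding transcripts Lhx6-201, Lhx6-203 and Lhx6-205 had 0 counts in all 3 C57BL/6 libraries. The library labelled IRAK4-KD replicate 3 had 0, 2 and 0, while Lhx6-201 had 496 to 7264 counts in every other library. These transcript values are assembler estimates and were not tested.

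Gabra2 lies in a cluster with Gabrg1, Gabra4 and Gabrb1, the genes of the gamma-1, alpha-4 and beta-1 subunits. Of the 13 other genes with at least 1 CPM that overlap the 2 Mb on either side of Gabra2, 0 had an unadjusted p below 0.05 in C57BL/6 over IRAK4-KD, and 1 (Tec, a kinase gene, log2 fold change 0.41, unadjusted p = 0.0375) did in MRL over C57BL/6. In MRL over MRL-IRAK4-KD 5 did, where 14.7% of expressed genes had such a p. The 5 had log2 fold changes of 0.64 for Atp10d, -1.43 for Gm15616, 0.41 for Tec, -0.16 for Commd8 and 0.40 for Gabrg1. In MRL-IRAK4-KD over IRAK4-KD 0 did. The interval was chosen after the values of Gabra2 were seen. In C57BL/6 over IRAK4-KD the log2 fold changes of its cluster neighbours were 0.21 for Gabrg1, -0.17 for Gabra4 and -0.14 for Gabrb1, all with 95% intervals that included 0.

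**Figure D2:**
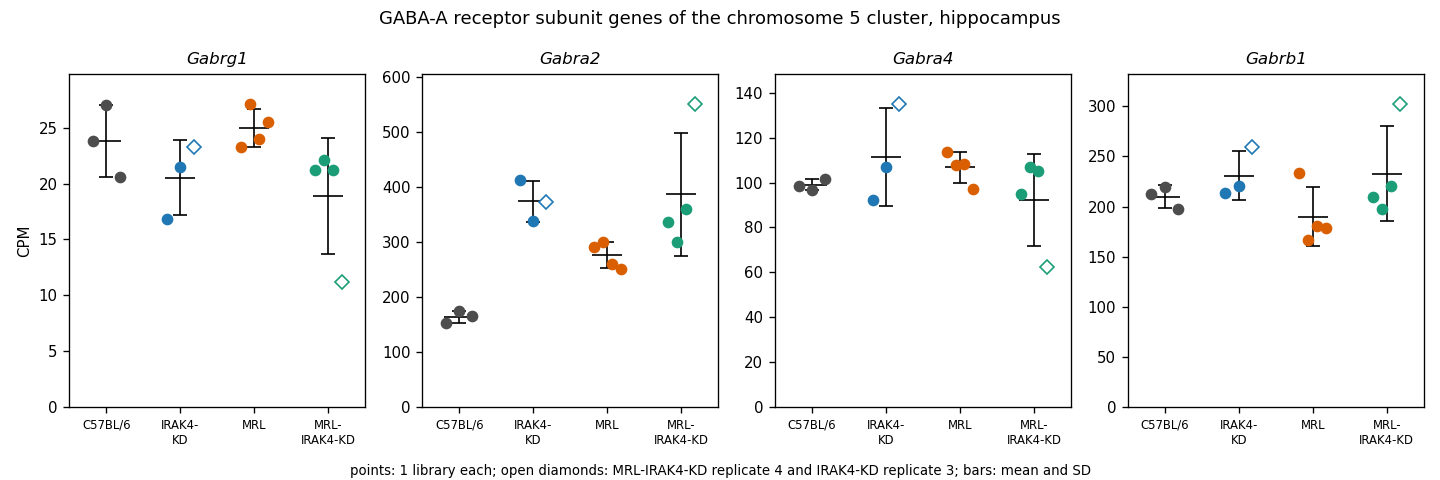
CPM of Gabrg1, Gabra2, Gabra4 and Gabrb1 in each library of the 4 groups, with the group mean and SD. Gabra2 sits at 153 to 174 CPM in C57BL/6 and at 251 CPM or more in every other library, while C57BL/6 overlaps with IRAK4-KD for Gabrg1, Gabra4 and Gabrb1.

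Gabrg1 (chromosome 5, 70751047 to 70842617) read 23.3, 27.1, 24.0 and 25.5 CPM in MRL and 21.2, 22.1, 21.2 and 11.2 CPM in MRL-IRAK4-KD. The 2 groups did not overlap, and replicate 4 was the low value. Its log2 fold change was 0.40 (unadjusted p = 0.0485, adjusted p = 0.439), and 0.22 without that library (unadjusted p = 0.0649). In all, 10 of the 14 analyses with 1 library left out put its p above 0.05. C57BL/6 and IRAK4-KD spanned 16.8 to 27.1 CPM.

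Gabrb1 and Gabra4, which overlap in the annotation, so that counting could split reads between them, spanned 167 to 302 CPM and 62.5 to 135 CPM. MRL-IRAK4-KD replicate 4 was the highest library for Gabrb1 and the lowest for Gabra4. Gabra5, the extrasynaptic alpha-5 subunit typical of pyramidal cells of the hippocampus, ranged from 94.3 to 212 CPM, with its extremes in MRL-IRAK4-KD replicate 4 and MRL replicate 1. Its log2 fold changes lay between -0.19 and -0.10 in the 4 comparisons, each with a 95% interval that included 0. Gabra3, the alpha-3 subunit, read 51.2, 96.9, 91.8 and 93.9 CPM in MRL and 56.8, 73.8, 64.0 and 24.2 CPM in MRL-IRAK4-KD, a log2 fold change of 0.61 (unadjusted p = 0.0533).

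Gabrb2, the beta-2 subunit of the most common GABA-A receptor, varied more between libraries than any other member, from 3.37 CPM in MRL-IRAK4-KD replicate 4 to 66.2 CPM in the library labelled IRAK4-KD replicate 3. Its log2 fold change of 0.64 in MRL over MRL-IRAK4-KD had a 95% interval of -0.55 to 1.82. Gabrg3, the gamma-3 subunit, lay between 17.8 and 22.1 CPM in 13 libraries and at 29.5 CPM in the library labelled IRAK4-KD replicate 3.

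Gabrd encodes the delta subunit of extrasynaptic receptors, typical of dentate granule cells (chromosome 4, 155384980 to 155398112). It read 24.8, 49.6, 32.5 and 31.4 CPM in MRL and 19.8, 19.5 and 25.4 CPM in C57BL/6. The groups overlapped only through MRL replicate 1 and C57BL/6 replicate 3. The log2 fold change was 0.68 (unadjusted p = 0.00959, edgeR adjusted p = 0.746), and 0.46 without MRL replicate 2, its highest library (unadjusted p = 0.0317). IRAK4-KD read 18.03 to 26.3 CPM and MRL-IRAK4-KD 21.5 to 33.4 CPM. Within MRL, Gabrd was lowest in replicate 1 and highest in replicate 2, as was the neocortical gene Cux2 (28.7 and 94.8 CPM). Prox1, of the excitatory neuron list, was highest in replicate 1 (124 CPM) and lowest in replicate 2 (56.4 CPM). The part of such differences in the Gabrd values was not tested.

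Gphn encodes gephyrin, which anchors GABA-A and glycine receptors at inhibitory synapses. It lay between 54.7 and 72.6 CPM in 13 libraries and at 29.9 CPM in MRL-IRAK4-KD replicate 4. The GABA-B subunit genes Gabbr1 (486 to 685 CPM) and Gabbr2 (245 to 331 CPM) were the steadiest receptor genes, and their lowest libraries were both MRL-IRAK4-KD replicate 4. The 95% intervals of Gabbr1 reached from -0.34 to 0.34 over the 4 comparisons and those of Gabbr2 from -0.32 to 0.20.

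Gad1, the gene of the enzyme that makes most of the cell's GABA, read 213, 262 and 245 CPM in C57BL/6, 281, 276 and 307 CPM in IRAK4-KD, 264, 239.5, 257 and 222 CPM in MRL and 276, 271, 304 and 220.3 CPM in MRL-IRAK4-KD. The 3 IRAK4-KD libraries were above all C57BL/6 libraries, with a log2 fold change of -0.26 for C57BL/6 over IRAK4-KD (unadjusted p = 0.0542). Gad1 overlaps an antisense gene, and whether counting used strand was not given in the sources used here.

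Gad2 (chromosome 2, 22622205 to 22693874) read 97.4, 114 and 101 CPM in C57BL/6 and 131, 121 and 168 CPM in IRAK4-KD, without overlap and with the highest value in the library labelled IRAK4-KD replicate 3. Its log2 fold change was -0.42 (unadjusted p = 0.0321, edgeR adjusted p = 1), and -0.27 without that library (unadjusted p = 0.170). Striatal genes moved with it: 9 of 14 were lower in C57BL/6 over IRAK4-KD at an unadjusted p below 0.05, where 1.67% of expressed genes were lower. The list summed to 809 CPM in the library labelled IRAK4-KD replicate 3 against 234 to 345 CPM in the other 13. Striatal projection neurons are themselves GABAergic and express both GAD genes. The part of these genes in the Gad2 result was not tested beyond the value without the library. MRL had 114, 114, 111 and 94.2 CPM and MRL-IRAK4-KD 117, 116, 132 and 76.4 CPM of Gad2, which overlapped.

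Slc32a1, encoding the vesicular transporter VGAT, read 27.1, 39.0 and 38.1 CPM in C57BL/6, 40.6, 31.0 and 39.9 CPM in IRAK4-KD, 41.9, 46.5, 41.7 and 36.5 CPM in MRL and 45.0, 39.5, 44.4 and 39.5 CPM in MRL-IRAK4-KD. It had no unadjusted p below 0.05, and MRL over C57BL/6 was 0.26 (95% interval -0.04 to 0.56). Abat, the enzyme that breaks GABA down, and Slc6a11, the GABA transporter GAT3 of astrocytes, lay between 179.7 and 231 CPM and between 112 and 139 CPM in 13 libraries. In MRL-IRAK4-KD replicate 4 they read 101 and 31.4 CPM.

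**Figure D3:**
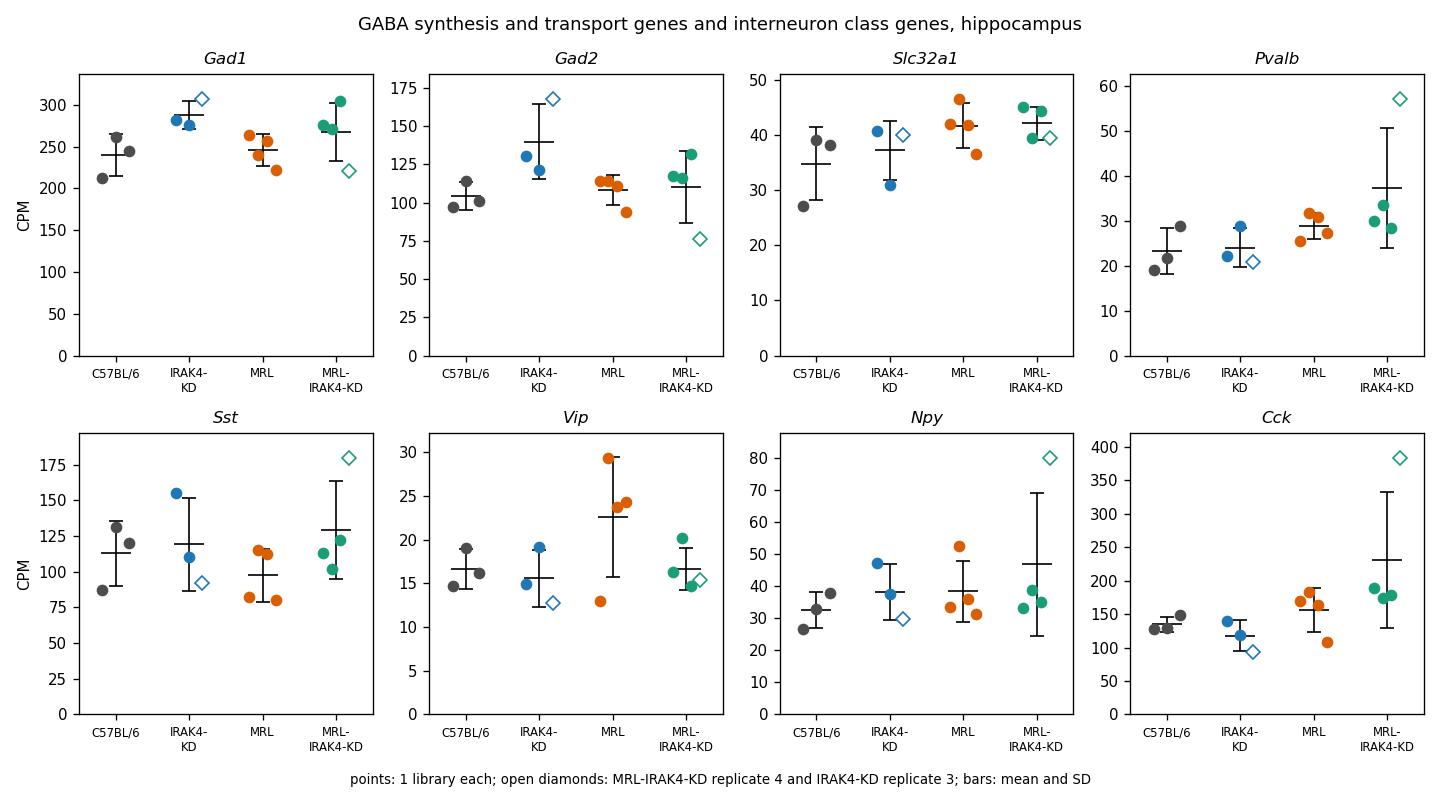
CPM of Gad1, Gad2, Slc32a1, Pvalb, Sst, Vip, Npy and Cck in each library of the 4 groups, with the group mean and SD. Open diamonds mark MRL-IRAK4-KD replicate 4, the highest library for Pvalb (56.95), Sst (179.6), Npy (80.1) and Cck (383), and the library labelled IRAK4-KD replicate 3, the highest for Gad1 and Gad2.

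Pvalb, Sst, Npy and Cck, whose exons are all under 2 kb, had their highest value in MRL-IRAK4-KD replicate 4, and Vip did not. Sst read 87.3, 131 and 120.2 CPM in C57BL/6, 155, 110.3 and 92.2 CPM in IRAK4-KD, 82.3, 115, 112 and 80.2 CPM in MRL and 113, 102, 122 and 179.6 CPM in MRL-IRAK4-KD. All 4 groups overlapped, and no unadjusted p was below 0.05. The 250 bases before the RefSeq start of Sst held the only cyclic AMP response element (TGACGTCA) among 36 such windows of 26 members. That motif, shown in capitals in the 30 bases around it (GRCm38.p6, chr16:23890874-23890903, minus strand), was in 1.55% of all windows. The GENCODE M21 bounds of Sst, 23889573 to 23890958, reach past the RefSeq start and include this stretch.
Sst: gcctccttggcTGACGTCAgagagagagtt

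Pvalb, the calcium buffer of fast-spiking basket cells (chromosome 15, 78191114 to 78206400), read 29.9, 33.4, 28.3 and 56.95 CPM in MRL-IRAK4-KD and 22.03, 28.9 and 20.9 CPM in IRAK4-KD. The log2 fold change was 0.64 (unadjusted p = 0.0147, edgeR adjusted p = 0.553). It was 0.35 without MRL-IRAK4-KD replicate 4 (unadjusted p = 0.0319), 0.55 without the library labelled IRAK4-KD replicate 3 (unadjusted p = 0.0627) and 0.26 with both left out (unadjusted p = 0.136). MRL read 25.5, 31.6, 30.8 and 27.3 CPM and C57BL/6 19.1, 21.8 and 28.9 CPM.

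Cck is made by a class of basket cells and also by many pyramidal cells (chromosome 9, 121489824 to 121495694). It read 189, 174, 178 and 383 CPM in MRL-IRAK4-KD, 169, 182, 164 and 109 CPM in MRL, 140.1, 118 and 93.9 CPM in IRAK4-KD and 127, 129 and 148 CPM in C57BL/6. All MRL-IRAK4-KD libraries were above all IRAK4-KD libraries, with a log2 fold change of 0.97 (unadjusted p = 0.00279, edgeR adjusted p = 0.420). Without MRL-IRAK4-KD replicate 4 it was 0.62 (unadjusted p = 0.00269, adjusted p = 0.275), and without both libraries that stood apart it was 0.48 (unadjusted p = 0.0185). MRL over MRL-IRAK4-KD was -0.57 (unadjusted p = 0.0358), -0.20 without replicate 4 of MRL-IRAK4-KD (unadjusted p = 0.218) and -0.40 without replicate 4 of MRL (unadjusted p = 0.124). With all libraries in the fit, most excitatory neuron genes were lower in that comparison too, 6 of 13 at an unadjusted p below 0.05. Of expressed genes 7.89% were lower at such a p. The part of the excitatory neuron genes in the Cck values was not tested.

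Npy read 26.8, 32.9 and 38.1 CPM in C57BL/6, 47.3, 37.6 and 29.96 CPM in IRAK4-KD, 33.7, 52.6, 36.0 and 31.5 CPM in MRL and 33.3, 38.9, 35.2 and 80.1 CPM in MRL-IRAK4-KD. The groups overlapped throughout. Vip, a marker of interneurons that mainly inhibit other interneurons, read 13.0, 29.3, 23.8 and 24.3 CPM in MRL and 16.3, 20.2, 14.7 and 15.4 CPM in MRL-IRAK4-KD. That log2 fold change was 0.44 (unadjusted p = 0.0549), and MRL over C57BL/6, with C57BL/6 at 14.7, 19.1 and 16.2 CPM, was also 0.44 (unadjusted p = 0.0748). IRAK4-KD had 14.9, 19.2 and 12.7 CPM of Vip.

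**Figure D4:**
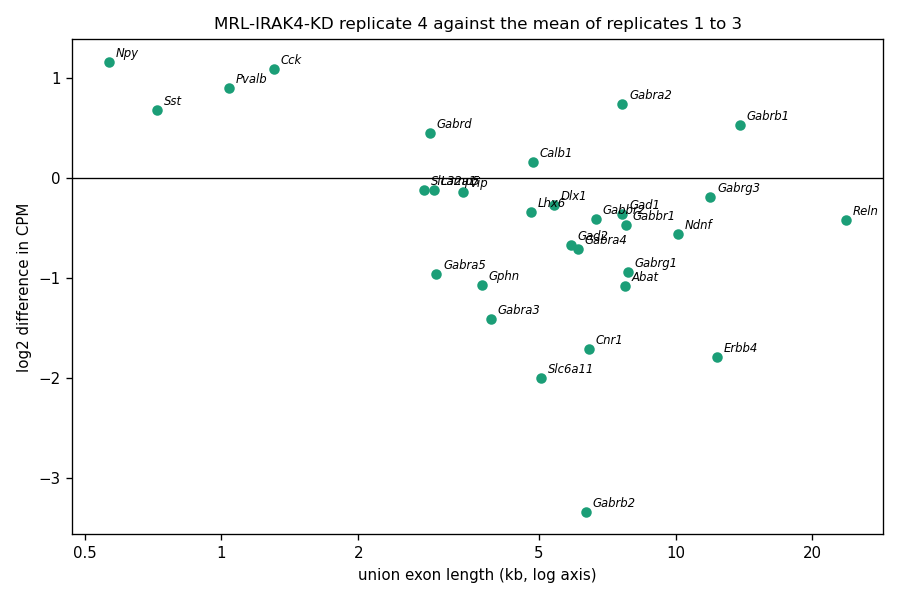
log2 difference in CPM between MRL-IRAK4-KD replicate 4 and the mean of replicates 1 to 3 for the 30 genes, against exon length on a log axis. The 4 genes under 2 kb (Npy, Sst, Pvalb, Cck) lie above 0, Gabrb2 lies lowest at -3.33, and Gabra2 and Gabrb1 lie above 0 at 0.74 and 0.53.

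In MRL-IRAK4-KD replicate 4 the difference from its group varied with exon length, among the members as among all genes. Against the mean of the other 3 libraries, the median log2 difference of all expressed genes was 0.57 under 2 kb of exon and -0.39 over 5 kb. Of the members, 4 of 4 under 2 kb were higher, 2 of 9 between 2 and 5 kb and 2 of 17 over 5 kb. The 2 long genes that were higher were Gabra2 (1.66-fold) and Gabrb1 (1.44-fold). Cnr1, the cannabinoid receptor of Cck basket cell terminals, read 62.4 CPM there against 187 to 225 CPM in the other 3 libraries of its group. Erbb4, the neuregulin receptor of interneurons, read 13.1 CPM against 40.3 to 48.9 CPM. The library labelled IRAK4-KD replicate 3 had a smaller trend in the other direction against the rest of its group. Its median log2 difference of all expressed genes was -0.18 under 2 kb and 0.083 over 5 kb. Of the members, 0 of 4 under 2 kb, 6 of 9 between 2 and 5 kb and 15 of 17 over 5 kb were higher there. The part of length in the results of these libraries was not tested beyond the values without them.

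Lamp5 marks neurogliaform interneurons and is also expressed by excitatory neurons of the cortex (chromosome 2, 136052239 to 136069917). The 4 MRL libraries read 38.2, 155, 85.3 and 90.9 CPM. MRL-IRAK4-KD read 37.1, 65.7, 39.3 and 42.0 CPM, C57BL/6 36.2, 42.9 and 43.1 CPM and IRAK4-KD 32.9, 37.2 and 35.7 CPM. MRL replicates 2, 3 and 4 lay above every library of the other groups, and MRL replicate 1 lay among them. Its log2 fold change was 1.00 over MRL-IRAK4-KD (unadjusted p = 0.0056, edgeR adjusted p = 0.401) and 1.18 over C57BL/6 (unadjusted p = 0.00369, adjusted p = 0.630). Without MRL replicate 2 these were 0.64 and 0.81, and without MRL replicate 1 they were 1.26 (adjusted p = 0.0608) and 1.45 (adjusted p = 0.132).

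Some neocortical genes moved with Lamp5. Of 11 detected, 6 had a log2 fold change above 0 in MRL over MRL-IRAK4-KD and 10 did in MRL over C57BL/6. At an unadjusted p below 0.05, 4 were higher, Cux2 and Rorb among them, and 1 (Scnn1a) was lower in MRL over MRL-IRAK4-KD. Of expressed genes 6.85% were higher and 7.89% lower at such a p there. In MRL over C57BL/6 3 were higher, Cux2 among them, where 4.62% of expressed genes were higher. Cux2, a transcription factor of upper cortical layers and some interneurons, read 28.7, 94.8, 68.7 and 75.1 CPM in MRL, in which replicate 1 was again low, and 21.8 to 43.7 CPM in the other 10 libraries. The list summed to 395 to 515 CPM in MRL, 380 to 488 CPM in MRL-IRAK4-KD, 342 to 408 CPM in C57BL/6 and 328 to 414 CPM in IRAK4-KD, and no defining gene of it was at 0 in every library. The part of these genes in the Lamp5 result was not tested.

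**Figure D5:**
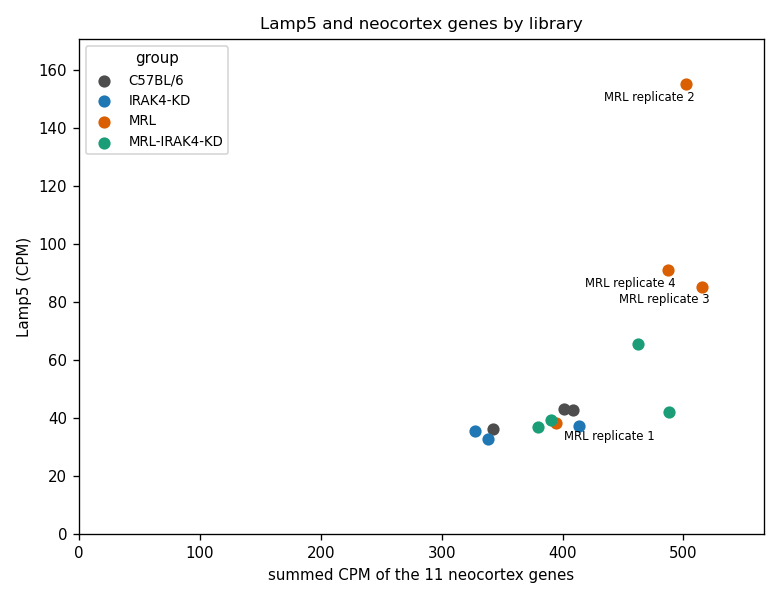
Lamp5 in CPM against the summed CPM of 11 neocortical genes, 1 point per library, coloured by group. MRL replicates 2 to 4 have 85.3 to 155 CPM of Lamp5 and sums of 487 to 515 CPM, and MRL replicate 1 lies with the other groups. MRL-IRAK4-KD replicates 2 and 4 reach sums of 463 and 488 CPM with 65.7 and 42.0 CPM of Lamp5.

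Ndnf marks neurogliaform cells and Cajal-Retzius cells (chromosome 6, 65671590 to 65712326). It read 16.2, 18.8 and 14.9 CPM in C57BL/6 and 23.7, 22.2 and 26.8 CPM in IRAK4-KD, which did not overlap. The log2 fold change was -0.54 (unadjusted p = 0.00771, edgeR adjusted p = 1). It was -0.46 without the library labelled IRAK4-KD replicate 3 (unadjusted p = 0.0344). MRL read 14.7 to 20.4 CPM and MRL-IRAK4-KD 14.4 to 22.5 CPM.

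Reln encodes reelin, which Cajal-Retzius cells and many interneurons secrete (chromosome 5, 21884454 to 22344702). It read 51.8, 54.7, 71.6 and 79.6 CPM in MRL and 42.6, 45.8, 61.7 and 36.9 CPM in MRL-IRAK4-KD, which overlapped through MRL-IRAK4-KD replicate 3. Its log2 fold change was 0.46 (unadjusted p = 0.0299, edgeR adjusted p = 0.437), 0.37 without MRL-IRAK4-KD replicate 4 (unadjusted p = 0.0855) and 0.36 without MRL replicate 4 (unadjusted p = 0.0977). C57BL/6 and IRAK4-KD spanned 46.6 to 74.3 CPM.

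The transcription factor genes of interneuron development, Lhx6 (medial ganglionic eminence) and Dlx1, stayed within narrow ranges of 13.4 to 20.4 and 26.0 to 39.2 CPM. Dlx1 overlaps an antisense gene. Calb1, the calcium buffer calbindin of granule cells, CA1 pyramidal cells and some interneurons, spanned 127 to 185 CPM. None of these 3 genes, nor Cnr1 (62.4 to 231 CPM) or Erbb4 (13.1 to 58.1 CPM), had an unadjusted p below 0.05 in any comparison. The 95% intervals of Lhx6 reached from -0.44 to 0.30 over the 4 comparisons of groups.

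A list of 77 other genes of GABA signalling and interneurons, of which 75 were tested, held no gene past the adjusted threshold in any comparison. At an unadjusted p below 0.05 it held 10 genes in MRL over MRL-IRAK4-KD (5 higher, 5 lower), 7 in C57BL/6 over IRAK4-KD (4 higher, 3 lower), 4 in MRL over C57BL/6 (2 and 2), 5 in MRL-IRAK4-KD over IRAK4-KD (3 and 2) and 6 in the interaction (3 and 3). Of all genes tested, 11.4%, 3.80%, 5.55%, 8.63% and 4.17% had such a p in these comparisons, and 11 of the 75 had a mean below 1 CPM. The smallest p in MRL over MRL-IRAK4-KD belonged to Htr3a, the serotonin receptor gene of a broad interneuron class that includes Vip cells, with a log2 fold change of -0.54 (unadjusted p = 0.00759). Sncg, a marker of Cck basket cells, was at -0.94 (unadjusted p = 0.00885).

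In C57BL/6 over IRAK4-KD the smallest p of that list belonged to Acan, the aggrecan gene of perineuronal nets around Pvalb cells, at -0.71 (unadjusted p = 0.00148, adjusted p = 0.480). Chat, the marker of cholinergic neurons, had a mean of 0.0564 CPM in C57BL/6 and 0.559 CPM in IRAK4-KD, both below 1 CPM. The IRAK4-KD mean includes the library labelled replicate 3, in which striatal genes were high, and Chat was not tested without that library. Slc6a13, the GABA transporter GAT2 of meninges and vessels, was at 1.23 (unadjusted p = 0.00548), with means of 12.5 CPM in C57BL/6 and 5.33 CPM in IRAK4-KD.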

How the data were processed

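Poly(A) RNA from the hippocampus was sequenced in 14 libraries. Reads were mapped to mm10 by the authors using HISAT2, and they deposited counts per gene and per transcript from StringTie (HISAT2 2.1.0, SAMtools 1.9 and StringTie 2.1.0 in the submitters' processing notes). StringTie derives these counts from coverage, so sampling noise cannot be read from them directly. The strand setting of the counting was not given in the sources used here, and the labels and the methods name different library kits. The deposited table of the sequencing core gave counts of reads and qPCR concentrations.

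Of 81881 features, 26345 without an Ensembl identifier were left out, which held 0.0254% to 0.188% of counts. Gene names, exon lengths and coordinates were from GENCODE M21, whose identifiers the table carries. The members, the marker and pathway lists and the tests were chosen with earlier results of these data known. The 38070 genes whose counts summed to 10 or more were tested with the quasi-likelihood test of edgeR 4.0.16 in R 4.3.3 (TMM scaling, robust fit), in 1 fit of 4 groups with Benjamini-Hochberg adjustment, after the test was checked on simulated data. CPM used the TMM-scaled totals. DESeq2 1.42.0, limma 3.58.1 (voom), other scalings and filters, a replicate block, fits of only the groups compared and fits without single libraries were alternatives. Every library was printed for Gad1, Gad2, Slc32a1, Pvalb, Sst, Vip, Npy, Cck and each member at an unadjusted p below 0.05 (at most 12). Of the pathway genes, at most 5 per comparison with the smallest p could be named. Sequences were RefSeq windows of GRCm38.p6, found for 26 of 30 members; Abat, Gabrd, Calb1 and Ndnf had none. Single-gene values of some listed genes are not reported here.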

Additional observations from a re-analysis of the deposited data

Results flagged for a closer look

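In the groups of 4 libraries, 60 pairs of a member and a group were examined for 1 library far from the other 3, and 12 were found, where chance gives about 1 in 20. Of these, 9 were in MRL-IRAK4-KD replicate 4. That library was the lowest of its group for Slc6a11 (31.4 CPM), Abat (101 CPM), Gphn (29.9 CPM), Gabrg1 (11.2 CPM), Gabbr1 (486 CPM), Gabbr2 (245 CPM), Cnr1 (62.4 CPM) and Erbb4 (13.1 CPM), and the highest for Cck (383 CPM). The others were in MRL, where replicate 4 was lowest for Gad2 (94.2 CPM), and replicate 1 was highest for Gphn (72.6 CPM) and lowest for Gabra3 (51.2 CPM).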

How the results depend on the processing

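No member at an unadjusted p below 0.05 changed sign under any alternative. Adjusted calls of members in MRL over C57BL/6 went from 0 to 1 (Gabra2) with DESeq2, with limma-voom and with MRL-IRAK4-KD replicate 4 and the library labelled IRAK4-KD replicate 3 both left out, and in the interaction from 0 to 1 with limma-voom. Unadjusted calls in MRL over MRL-IRAK4-KD (5) were 13 with limma-voom and 3 with only the groups compared. In C57BL/6 over IRAK4-KD (3) they were 5 with both libraries left out and 6 with only the groups compared, in MRL over C57BL/6 (3) they were 6 with limma-voom, in MRL-IRAK4-KD over IRAK4-KD (2) they were 4 with scaling by library size only and 1 with both libraries left out, and in the interaction (1) they were 2 with limma-voom. The causes were not tested.

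With single libraries left out, adjusted calls ranged from 0 to 1 in C57BL/6 over IRAK4-KD, in MRL over C57BL/6 and in the interaction, and were 0 in the other comparisons. Unadjusted calls ranged from 2 to 9 in MRL over MRL-IRAK4-KD, from 2 to 4 in C57BL/6 over IRAK4-KD, from 3 to 4 in MRL over C57BL/6, from 1 to 5 in MRL-IRAK4-KD over IRAK4-KD and from 1 to 3 in the interaction. The extremes of the first were without MRL replicate 1 (9) and without MRL replicate 3 or 4 (2).

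Replicate numbers did not pair the samples: 4 of 19 same-numbered pairs had a correlation over 0.1 (-0.251 to 0.375). With the replicate block, Gabra2 in C57BL/6 over IRAK4-KD was -1.19 (edgeR adjusted p = 0.0346), and unadjusted calls in the interaction were 2 (Gad2, Gabra2).

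Over all genes, adjusted calls in the order of the comparisons in the text were 37, 56, 0, 28 and 1 by edgeR, 395, 166, 197, 283 and 59 by DESeq2 and 232, 145, 67, 266 and 24 by limma-voom. In the interaction they were 4 with no filter on low counts, 2 with the replicate block and 11 with both libraries left out. Fits of only the groups compared give no interaction, and called 18, 95, 0 and 6 genes.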
